A study of Homo sapiens with 12 samples.

Results

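The expression of 9 genes of tryptophan breakdown and of aryl hydrocarbon receptor (AHR) signalling was followed across 4 groups of MDA231 arrays. They are the kynurenine pathway genes IDO1, AFMID, KYNU, AADAT and QPRT, the receptor gene AHR, and the AHR target genes CYP1A1, CYP1B1 and TIPARP. All probe sets annotated to these symbols alone were taken, which gave 16 of the 54675 probe sets on the array. Of the 16 probe sets, 11 exceeded their array's median on at least 3 arrays, and these cover 7 of the 9 genes, KYNU, AADAT, AFMID, AHR, CYP1A1, CYP1B1 and TIPARP. QPRT and IDO1 did not pass that filter and are given by their values. The list was chosen by gene symbol after an earlier analysis of these data had shown KYNU among the largest falls in both knockdowns against scramble. All values of KYNU are therefore described and not tested, and the values of the other members may also have been known when the list was drawn up.

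MDA231 (MDA-MB-231) is an established human line of triple-negative breast cancer. All 12 arrays carried a pGIPZ lentiviral hairpin, with 3 arrays in each group. The control group had a scrambled hairpin (scramble), a second group had that hairpin and ETX (ETX), and the others had a hairpin targeting CPT1 (shCPT-1) or one targeting CPT2 (shCPT-2). ETX is not spelled out in the labels and is read here as etomoxir, a CPT1 inhibitor. CPT1 and CPT2 are the carnitine palmitoyltransferases of mitochondrial fatty acid import. The number of hairpins or clones per gene, the dose and time of ETX for the arrays, and the origin of the cells (culture or tumour) are not stated in the labels. No label says that the 3 arrays of a group are separate cultures, so the p-values reflect array-to-array spread that could be technical.

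Most dietary tryptophan that is not used for protein is broken down along the kynurenine pathway. IDO1 opens the indole ring, AFMID (arylformamidase) releases kynurenine, and kynurenine is then cut by KYNU (kynureninase) to anthranilic acid or transaminated by AADAT (kynurenine aminotransferase II) to kynurenic acid. QPRT turns the later product quinolinic acid into a precursor of NAD. Kynurenine and kynurenic acid are known ligands of AHR, a transcription factor that pairs with ARNT and binds DNA elements with the core GCGTG. CYP1A1 and CYP1B1 are monooxygenases and TIPARP is an ADP-ribosyltransferase that feeds back on AHR, and all 3 are textbook AHR targets.

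The promoters of KYNU, AHR and CYP1A1 are shown because KYNU and AHR changed between groups and CYP1A1, the classical AHR target, stayed near the array median. Each is 250 bases before to 50 after the gene's start in RefSeq (GRCh38.p14), a table that held a promoter for 7 of the 9 members. Capitals mark GCGTG on either strand. The windows are chr2:142877414-142877713 (+ strand) for KYNU, chr7:17298402-17298701 (+ strand) for AHR and chr15:74725479-74725778 (- strand) for CYP1A1.
KYNU: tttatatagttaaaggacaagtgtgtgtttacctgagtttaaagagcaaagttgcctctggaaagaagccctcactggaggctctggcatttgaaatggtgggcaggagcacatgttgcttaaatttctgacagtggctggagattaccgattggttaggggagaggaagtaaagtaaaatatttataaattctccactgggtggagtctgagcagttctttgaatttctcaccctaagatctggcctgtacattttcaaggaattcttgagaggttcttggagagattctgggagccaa
AHR: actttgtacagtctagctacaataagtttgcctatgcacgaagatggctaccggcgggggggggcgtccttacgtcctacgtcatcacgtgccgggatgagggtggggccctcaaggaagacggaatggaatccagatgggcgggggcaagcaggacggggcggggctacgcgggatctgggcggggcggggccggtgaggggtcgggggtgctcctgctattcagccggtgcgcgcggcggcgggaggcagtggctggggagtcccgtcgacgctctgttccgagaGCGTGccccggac
CYP1A1: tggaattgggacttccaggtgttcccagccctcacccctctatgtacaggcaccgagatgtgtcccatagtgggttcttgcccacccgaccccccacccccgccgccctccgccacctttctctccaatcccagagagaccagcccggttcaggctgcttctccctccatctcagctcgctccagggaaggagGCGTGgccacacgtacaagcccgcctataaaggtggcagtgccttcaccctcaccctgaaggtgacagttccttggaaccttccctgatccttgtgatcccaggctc
KYNU had 0 matches in this window, and AHR and CYP1A1 had 1 each. Of 35116 promoters of that length 36.5% held at least 1 GCGTG on either strand, and 5.51% held the longer TNGCGTG, which contains it and which none of these 3 windows held. A match is a description of the letters and not a binding site.

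Values are log2 intensities, and the median probe set of an array lay between 6.23 and 6.27. CPT1A fell in shCPT-1, from 9.78 ± 0.12 (SD, n = 3) to 8.19 ± 0.13, and CPT2 fell in shCPT-2, from 7.41 ± 0.09 to 6.41 ± 0.19. CPT1A was also 2.16-fold higher with ETX (log2 change 1.11 ± 0.08, adjusted p = 1.46e-06) and lower in shCPT-2 (-0.23 ± 0.08, adjusted p = 0.0318), and CPT2 was higher with ETX (0.27 ± 0.10, adjusted p = 0.043). All 6 MDA-MB-231 markers read (VIM, CD44, ZEB1, AXL, MSN, CAV1) were above the array median on all 12 arrays, and CDH1, PGR, PTPRC, CDH5, LUM and ALB on none. On all 12 arrays 5 of 8 luminal breast markers were above the median. Their means were 11.18 for KRT19, 8.9 for EPCAM and GATA3, 6.99 for ESR1 and 6.48 for ERBB3. The same count was 1 of 6 for leukocytes, 2 of 5 for endothelium, 1 of 5 for fibroblasts and 2 of 5 for hepatocytes. The summed intensity of 8 luminal breast markers was 3179 to 3402 in scramble and 3095 to 3310 with ETX, against 4227 to 4371 in shCPT-1 and 3857 to 3975 in shCPT-2. Sums are of linear intensities, so the brightest marker weighs most. For the luminal list that is KRT19, at 10.80 to 11.64 in log2 over all arrays, and its sum need not describe the other markers. The 5 endothelial markers summed to 428 to 458 in scramble and 434 to 478 with ETX, against 348 to 388 and 349 to 369 in shCPT-1 and shCPT-2. Hepatocyte markers summed to 518 to 557 in scramble against 439 to 476 in shCPT-1 and 455 to 485 in shCPT-2. Fibroblast markers summed to 550 to 579 in scramble against 482 to 511 with ETX and 496 to 505 in shCPT-2, and leukocyte markers to 346 to 365 against 309 to 325 in shCPT-2. The part of these marker differences in the results below was not tested. The actin control, whose 3′ minus 5′ log2 signal reads RNA integrity or labelling, gave 2.07 ± 0.27 (SD) in scramble and 1.68 to 1.75 on average in the other groups.

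**Figure D1:**
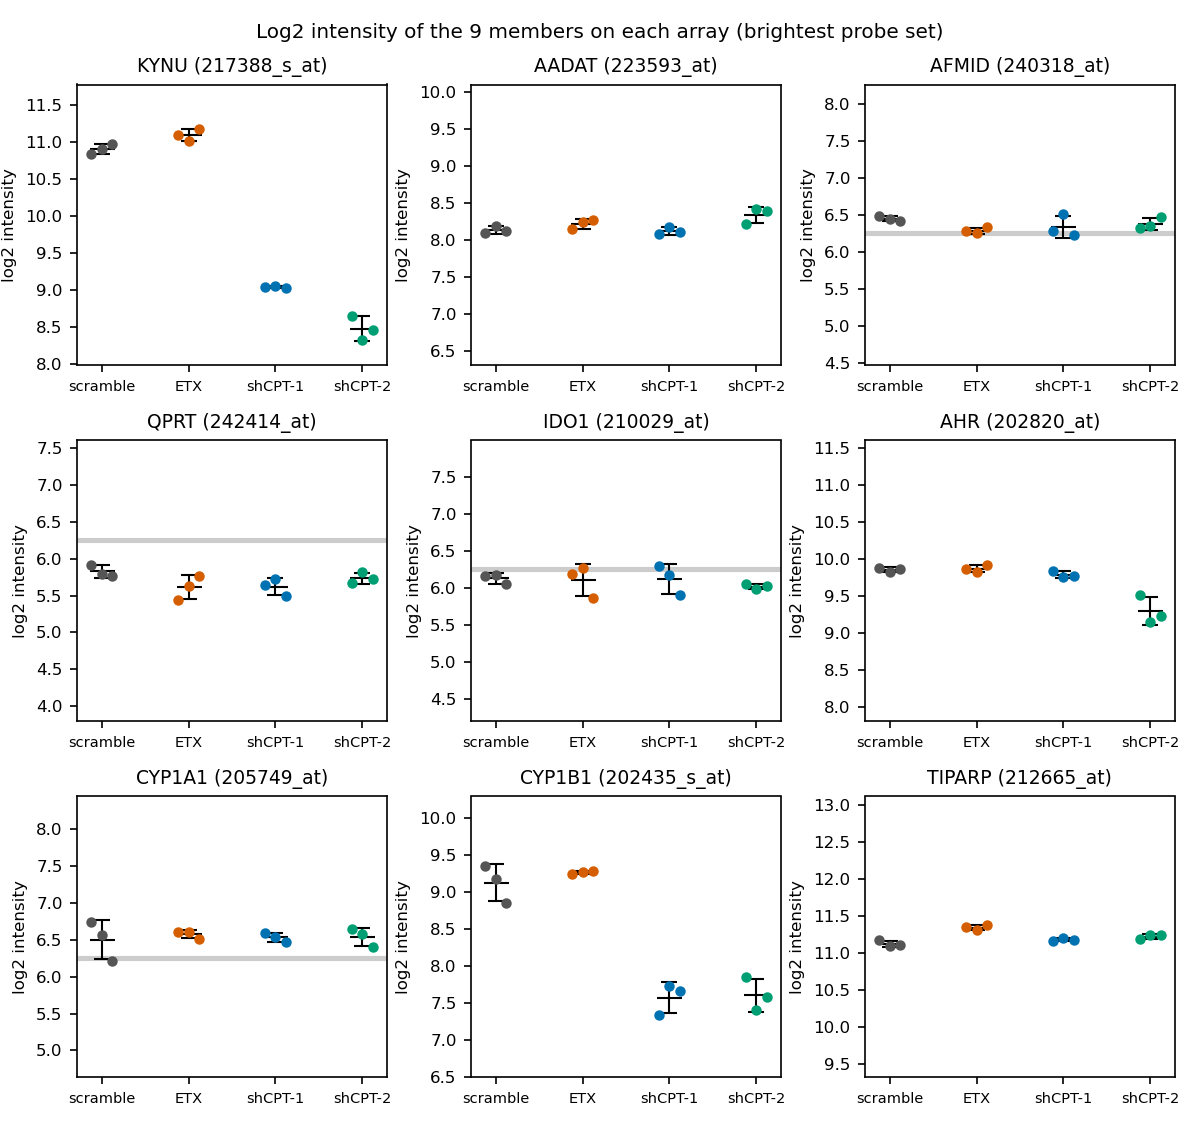
Log2 intensity (vertical axis) of each member's brightest probe set on each of the 12 arrays, by group, with the mean and SD over 3 arrays as black bars and the range of the array medians as a grey band; every panel spans the same 3.8 log2 units. KYNU and CYP1B1 lie lower in both knockdown groups, AHR in shCPT-2, QPRT lies under the band, and IDO1 under or near it with 1 ETX and 1 shCPT-1 array above.

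KYNU was high in scramble and with ETX and low in both knockdowns, and lowest in shCPT-2. Its brightest probe set, 217388_s_at, read 10.84, 10.91 and 10.97 on the scramble arrays and 11.09, 11.02 and 11.17 on the ETX arrays. On the shCPT-1 arrays it read 9.03, 9.05 and 9.02, and on the shCPT-2 arrays 8.65, 8.32 and 8.46. Each knockdown array lay under every scramble and ETX array, and the shCPT-1 and shCPT-2 arrays did not overlap. The values that chose the gene amount to a log2 change of -1.87 ± 0.07 (SE), or 3.66-fold lower, in shCPT-1 and -2.43 ± 0.07, or 5.39-fold lower, in shCPT-2. Those changes ranked 23 and 12 by size among 12886 tested genes.

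The remaining comparisons of KYNU use the same arrays as its choice and are likewise described without a test. In shCPT-2 against shCPT-1 the log2 change was -0.56 ± 0.07 for the brightest probe set, and -0.25 ± 0.05 and -0.43 ± 0.12 for 204385_at and 210663_s_at. With ETX the brightest probe set was 0.19 ± 0.07 above scramble, 204385_at 0.36 ± 0.05 and 210663_s_at 0.76 ± 0.12. In all 3 the ETX arrays lay above the scramble arrays. Over the settings tried, none of which took 210663_s_at on its own, the change with ETX ran from 0.13 to 0.44. Its size thus depended on the probe set and the fit.

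The KYNU probe sets agreed on the fall and differed in its size. Against scramble the log2 changes of 217388_s_at, 204385_at and 210663_s_at were -1.87, -1.29 and -1.20 in shCPT-1, and -2.43, -1.55 and -1.64 in shCPT-2. The fourth probe set, 210662_at, was under the array median on all 12 arrays, at 3.62 to 4.06 in scramble and 3.19 to 3.31 in shCPT-1, so its differences are at the level of dim probe sets.

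**Figure D2:**
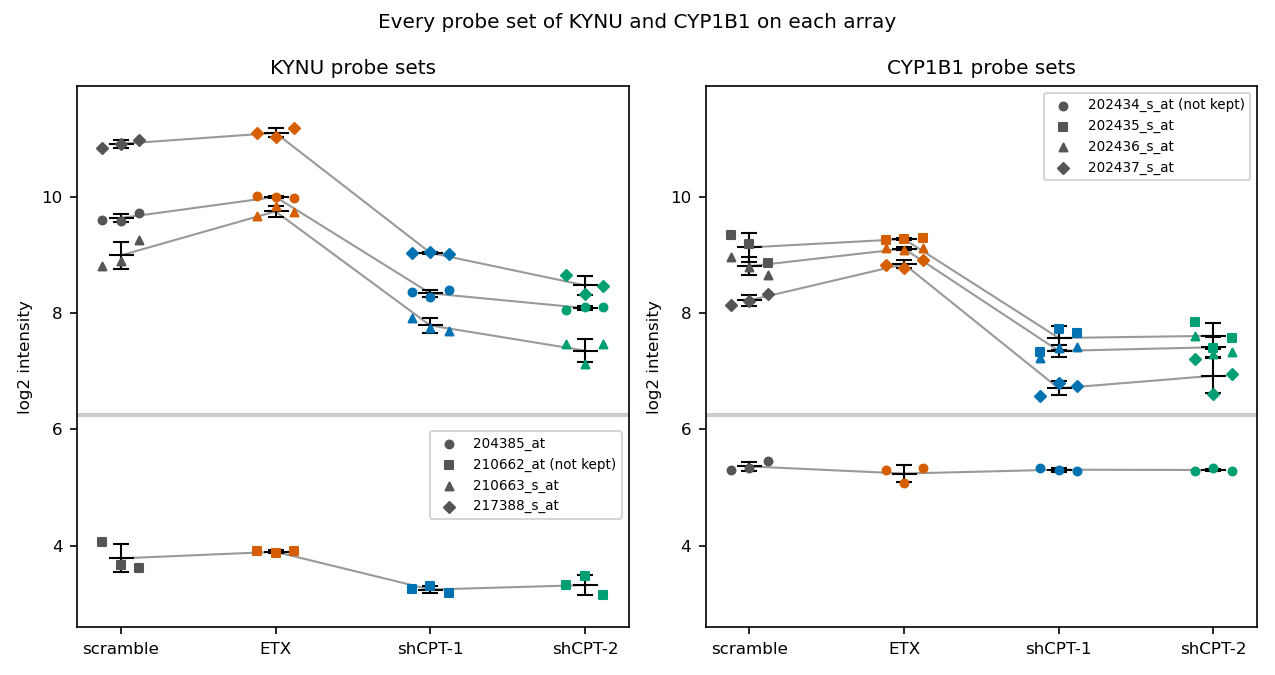
Log2 intensity (vertical axis) of all 4 probe sets of KYNU and all 4 of CYP1B1 on each array, by group, with the mean and SD of 3 arrays, grey lines joining the group means and the range of array medians as a grey band. The 3 kept probe sets of each gene are lower in both knockdowns than in scramble, and the fourth of each stays under the band.

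Among the remaining members of the kynurenine pathway, AADAT was called in shCPT-2 and AFMID in no group. AADAT, the alternative route for kynurenine, read 8.10, 8.19 and 8.13 in scramble and 8.22, 8.42 and 8.40 in shCPT-2. It was 0.21 ± 0.06 higher there (adjusted p = 0.0131), a call that ended without shCPT-2 replicate 3 (adjusted p = 0.0581). It was also 0.22 ± 0.06 above shCPT-1 (adjusted p = 0.0118, or 0.0536 without that array). Against ETX the 0.12 did not pass (adjusted p = 0.11), but did without shCPT-2 replicate 1 (0.0168). Its changes with ETX (0.08 ± 0.06) and in shCPT-1 (-0.01 ± 0.06) did not pass (adjusted p = 0.295 and 0.866). KYNU and AADAT share kynurenine as a substrate. In shCPT-2 against shCPT-1 KYNU was lower, given without a test, and AADAT higher. Any link between these changes was not tested. The related kynurenine aminotransferases KYAT1 and KYAT3, named after their values were seen, were higher in shCPT-1 by 0.37 ± 0.09 each (adjusted p = 0.00396 and 0.00525). In shCPT-2 their changes of 0.14 and 0.23 against scramble did not pass (adjusted p = 0.195 and 0.0527). Against ETX, KYAT1 was 0.54 ± 0.09 higher in shCPT-1 (adjusted p = 0.000251) and 0.31 ± 0.09 higher in shCPT-2 (adjusted p = 0.00978). KYAT3 did not pass against ETX in either knockdown (adjusted p = 0.18 and 0.914).

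AFMID, which supplies kynurenine, was near the array median, above it on 10 of 12 arrays. It read 6.49, 6.44 and 6.42 in scramble and 6.28, 6.26 and 6.34 with ETX, and those groups did not overlap. Its change of -0.16 ± 0.07 did not pass (adjusted p = 0.0801), and those of -0.11 in shCPT-1 and -0.07 in shCPT-2 did not either. Only a fit on the 2 groups alone (adjusted p = 0.0388) and one without shCPT-1 replicate 2 (0.0301) called it with ETX. Without that array AFMID was also called lower in shCPT-1 (-0.19, adjusted p = 0.0239).

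IDO1, the entry enzyme, lay near or under the array median. It exceeded the median on 2 of 12 arrays, 1 with ETX and 1 of shCPT-1, and ranged from 6.05 to 6.17 in scramble, 5.86 to 6.28 with ETX, 5.90 to 6.30 in shCPT-1 and 5.98 to 6.05 in shCPT-2. QPRT was under the median on all 12 arrays for both its probe sets, at 5.44 to 5.76 for 204044_at and 5.44 to 5.92 for 242414_at. In a fit without the filter none of these 3 probe sets was called against scramble, and their changes lay between -0.21 and 0.11. The smallest adjusted p among them was 0.108, for 242414_at with ETX (-0.21 ± 0.09). At this signal no difference in IDO1 or QPRT was called, which is not the same as no difference.

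AHR itself fell in shCPT-2. Its single probe set read 9.89, 9.82 and 9.87 in scramble, 9.87, 9.83 and 9.93 with ETX, and 9.84, 9.76 and 9.77 in shCPT-1. In shCPT-2 it read 9.52, 9.15 and 9.24, with all 3 arrays under the lowest array of every other group. The log2 change was -0.56 ± 0.08, or 1.47-fold lower, against scramble (adjusted p = 8.14e-05) and -0.49 ± 0.08 against shCPT-1 (adjusted p = 0.000357). The changes with ETX (0.02, 95% interval -0.15 to 0.18) and in shCPT-1 (-0.07, -0.24 to 0.10) did not pass. AHR and KYNU were thus both lower in shCPT-2 than in shCPT-1.

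Of the AHR targets, CYP1B1 fell in both knockdowns. Its brightest probe set, 202435_s_at, read 9.35, 9.18 and 8.86 in scramble and 9.25, 9.27 and 9.29 with ETX, against 7.33, 7.72 and 7.66 in shCPT-1 and 7.85, 7.40 and 7.58 in shCPT-2. The knockdown arrays lay at least 1 log2 unit under every scramble and ETX array, and overlapped with each other. The log2 change was -1.56 ± 0.14, or 2.94-fold lower, in shCPT-1 (adjusted p = 2.7e-06) and -1.52 ± 0.14, or 2.87-fold lower, in shCPT-2 (adjusted p = 2.35e-06), rank 40 and rank 69 by size of change. Between the knockdowns it differed by 0.04 ± 0.14 (95% interval -0.26 to 0.33, adjusted p = 0.87). CYP1B1 thus was called lower in shCPT-1, where AHR was not called, and in shCPT-2, where it was.

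With ETX the CYP1B1 probe sets gave different calls. The brightest was 0.14 ± 0.14 above scramble (adjusted p = 0.427), with the scramble SD at 0.25. The next, 202436_s_at, was 0.30 ± 0.09 higher (adjusted p = 0.0228) and 202437_s_at 0.62 ± 0.12 higher (adjusted p = 0.00212), and both had groups that did not overlap. All 3 kept probe sets fell in both knockdowns, with log2 changes of -1.56, -1.45 and -1.51 in shCPT-1 and -1.52, -1.39 and -1.30 in shCPT-2. The fourth, 202434_s_at, was under the array median on all 12 arrays, at 5.08 to 5.46, and was not called in any comparison against scramble without the filter.

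CYP1A1, the target most often used to read AHR activity, was near the array median. It read 6.73, 6.56 and 6.21 in scramble, 6.61, 6.61 and 6.51 with ETX, 6.59, 6.53 and 6.47 in shCPT-1 and 6.64, 6.57 and 6.41 in shCPT-2, and all groups overlapped. Its changes against scramble were 0.07 (95% interval -0.16 to 0.31), 0.03 (-0.20 to 0.26) and 0.04 (-0.19 to 0.27), with adjusted p of 0.611, 0.853 and 0.784. A signal this near the median limits what these intervals say.

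TIPARP rose with ETX by a small and steady amount. It read 11.18, 11.09 and 11.11 in scramble and 11.35, 11.31 and 11.38 with ETX, with no overlap. The rise was 0.22 ± 0.04, or 1.16-fold (adjusted p = 0.00169, and 0.000367 to 0.0128 over all settings tried). In shCPT-1 it read 11.17, 11.21 and 11.17 (0.06 ± 0.04 above scramble, adjusted p = 0.321), and in shCPT-2 11.19, 11.24 and 11.25 (0.10 ± 0.04, adjusted p = 0.0729). The shCPT-2 change passed with arrays centred on the median (0.0413) and with a trended, robust fit (0.0429). Among the 3 targets, then, CYP1B1 was called on its brightest probe set in both knockdowns, TIPARP with ETX and CYP1A1 in no group. The CYP1B1 probe sets 202436_s_at and 202437_s_at were also called higher with ETX. The difference between targets was not tested.

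**Figure D3:**
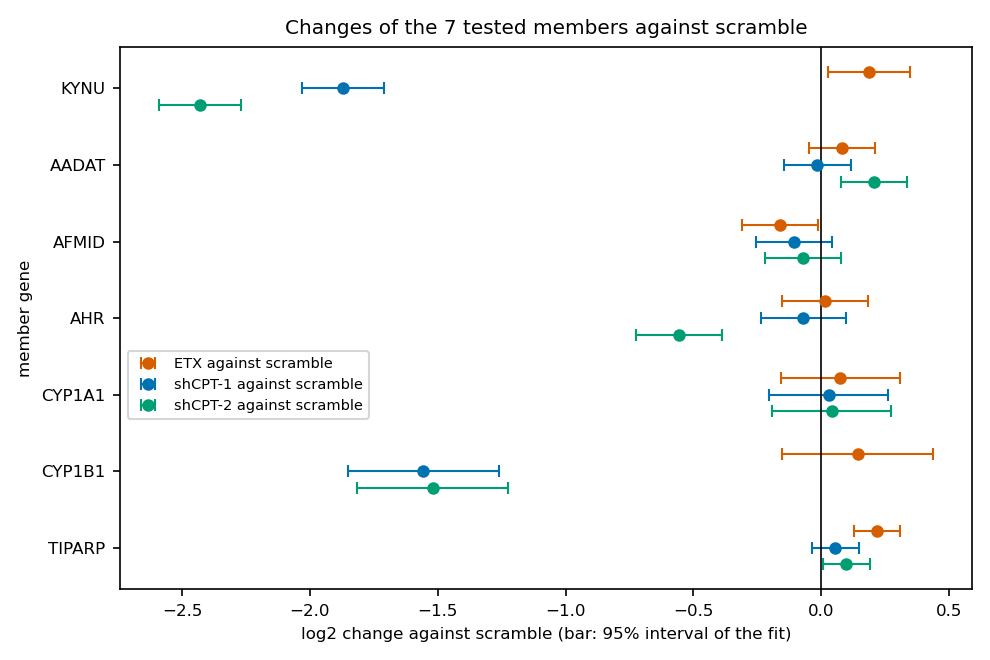
Log2 change against scramble (horizontal axis) of the 7 tested members (vertical axis) in ETX, shCPT-1 and shCPT-2, each with its 95% interval from the limma fit over 3 arrays per group. KYNU and CYP1B1 lie between -1.5 and -2.5 in both knockdowns, AHR at -0.56 in shCPT-2, and the remaining intervals lie within 0.5 of zero.

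Against scramble, 1 of 7 tested members was called higher with ETX and 0 lower, while 21.9% of all 12886 tested genes were higher and 19.4% lower. In shCPT-1, 0 were higher and 2 lower (23.1% and 18% of all genes), and in shCPT-2, 1 was higher and 3 lower (25.6% and 20.5%). KYNU is among the lower members in both knockdowns, where its choice fixed the direction, so nothing is read from these counts or from the later ones that include it. The median change of the 7 members was 0.08, -0.07 and -0.07 in the 3 comparisons, and that of all genes -0.01, 0.01 and 0.00. The 3 comparisons share the scramble arrays. With that actin signal added to the fit, an alternative chosen after seeing the data, the counts of members called against scramble stayed at 1, 2 and 4. Over all genes 3832, 4494 and 5124 were called in that fit, in place of 5319, 5302 and 5937. CYP1B1 then fell by 1.38 in shCPT-1 and by 1.32 in shCPT-2, and AHR by 0.60 in shCPT-2.

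Drug and knockdown of CPT1 were set against each other directly. In shCPT-1 against ETX the log2 change of CYP1B1 was -1.70 ± 0.14, or 3.25-fold lower (adjusted p = 8.71e-07), and that of TIPARP -0.16 ± 0.04 (adjusted p = 0.00762). KYNU was 4.17-fold lower, given without a test. No member was higher and 3 were lower, against 22.9% higher and 19.8% lower of all genes. AADAT, AFMID, AHR and CYP1A1 did not pass in this comparison, with changes between -0.10 and 0.05.

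In shCPT-2 against ETX, 0 members were higher and 4 lower (24.9% and 20.9% of all genes). The log2 change of CYP1B1 was -1.66 ± 0.14 (adjusted p = 9.4e-07) and that of AHR -0.57 ± 0.08 (adjusted p = 6.24e-05). TIPARP changed by -0.12 ± 0.04 (adjusted p = 0.0348). That call ended with the replicate number as a block (0.0588), with no filter (0.0773) and with a filter at the 25th percentile (0.0575). It also ended with quantile normalization again (0.0558) and with only the groups compared (0.0685). Leaving out ETX 1, ETX 3, shCPT-1 2 or any shCPT-2 array ended it too (up to 0.116, without shCPT-2 replicate 1). KYNU was 6.14-fold lower, again without a test. Between the knockdowns, shCPT-2 had 1 member higher, AADAT, and 2 lower, KYNU and AHR, than shCPT-1 (17.7% and 17.8% of all genes).

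A further 5 lists held 56 genes of the same pathways, of which 41 had a tested value. Their counts are descriptions without a test of the list, and each is set beside the share of all tested genes. Among genes of kynurenine and NAD synthesis 4 of 12 were higher and 2 lower with ETX, 5 and 3 in shCPT-1, and 2 and 3 in shCPT-2. Over all genes 21.9% were higher and 19.4% lower with ETX, 23.1% and 18% in shCPT-1, and 25.6% and 20.5% in shCPT-2. The list medians were 0.04, 0.05 and 0.05, and those of all genes -0.01, 0.01 and 0.00. NAMPT, which salvages nicotinamide for NAD, was higher in all 3 groups (0.68 ± 0.05, 0.84 ± 0.05 and 0.43 ± 0.05), and NAPRT, which uses nicotinic acid, lower in all 3 (-0.29, -0.57 and -0.57, each ± 0.06). NNMT, which methylates nicotinamide, was 0.68 ± 0.07 higher with ETX (adjusted p = 1.97e-05) and lower in both knockdowns, with changes of -0.93 ± 0.07 in shCPT-1 (adjusted p = 5.35e-07) and -0.57 ± 0.07 in shCPT-2 (adjusted p = 2.06e-05). GOT2, an aminotransferase that also accepts kynurenine, was higher in shCPT-2 (0.35 ± 0.04). TDO2, IDO2, KMO, ACMSD and IL4I1 did not pass the filter.

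Of 6 tested genes of tryptophan transport and use, 4 were higher and 1 lower with ETX (21.9% and 19.4% of all genes), 2 and 1 in shCPT-1 (23.1% and 18%), and 4 and 1 in shCPT-2 (25.6% and 20.5%), with list medians of 0.60, 0.06 and 0.26. SLC3A2 and SLC7A5 form the exchanger that carries tryptophan and kynurenine across the plasma membrane. SLC7A5 was higher in all 3 groups (0.58, 0.50 and 0.51, each ± 0.05), and SLC3A2 with ETX (0.82 ± 0.06) and in shCPT-2 (0.28 ± 0.06). In shCPT-1 SLC3A2 was at -0.03 ± 0.06. WARS1, the tryptophanyl-tRNA synthetase, was higher by 0.75 ± 0.05 with ETX, 0.23 ± 0.05 in shCPT-1 and 0.24 ± 0.05 in shCPT-2. MAOA, which breaks down serotonin, was higher by 0.62 ± 0.06 with ETX and 0.34 ± 0.06 in shCPT-2.

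Of 9 tested partners of AHR, 2 were higher and 2 lower with ETX (21.9% and 19.4% of all genes), 2 and 2 in shCPT-1 (23.1% and 18%), and 3 and 4 in shCPT-2 (25.6% and 20.5%), with list medians of 0.09, -0.01 and -0.09. AHRR, the AHR repressor and itself an AHR target, was higher in all 3 groups, by 0.28 ± 0.10 with ETX (adjusted p = 0.0438), 0.40 ± 0.10 in shCPT-1 and 0.67 ± 0.10 in shCPT-2 (adjusted p = 0.000154). The ETX call ended without scramble 1, any ETX array, shCPT-1 2 or any shCPT-2 array (up to 0.188) and in other settings. AHRR was dim in scramble, at 5.93, 6.25 and 6.27, beside array medians of 6.23 to 6.27. ARNT2, a relative of the dimer partner ARNT, was lower in all 3 (-0.37, -0.44 and -0.22, each ± 0.06). The chaperone HSP90AB1 was higher in shCPT-2 (0.23 ± 0.04), where 1 of its 3 kept probe sets was at -0.07. The kept probe sets of NCOA1, a coactivator, disagreed. The brightest was lower in all 3 (-0.12, -0.27 and -0.35, each ± 0.04), but with ETX all 4 ranged from -0.12 to 0.53 and 2 were called higher.

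Of 7 other tested AHR targets, 3 were higher and 0 lower with ETX (21.9% and 19.4% of all genes), 2 and 0 in shCPT-1 (23.1% and 18%), and 2 and 2 in shCPT-2 (25.6% and 20.5%), with list medians of -0.02, -0.11 and -0.05. ALDH1A3, which makes retinoic acid, was higher in shCPT-1 (0.45 ± 0.10) and in shCPT-2 (1.33 ± 0.10, adjusted p = 4.32e-07). It averaged 6.49 in scramble and 6.41 with ETX, near the array medians of 6.23 to 6.27, and 6.94 in shCPT-1 and 7.83 in shCPT-2. NQO1, a quinone reductase, was higher with ETX (0.43 ± 0.05) and lower in shCPT-2 (-0.17 ± 0.05, adjusted p = 0.0234, which ended without scramble 3 or shCPT-2 2, up to 0.0886). The EGF-family ligand EREG was higher in all 3 groups on its brighter probe set (1.65, 1.35 and 0.78, each ± 0.19), and its other kept probe set was not called (0.23, 0.23 and 0.10). With the actin signal in the fit its shCPT-2 change was 0.35 and did not pass (adjusted p = 0.0908). NFE2L2, which encodes NRF2, was 0.83 ± 0.18 higher with ETX on 1 kept probe set and 0.10 on the other.

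Of 7 tested regulators of IDO1, 0 were higher and 6 lower in shCPT-2 (25.6% and 20.5% of all genes), 2 and 2 with ETX (21.9% and 19.4%), and 1 and 3 in shCPT-1 (23.1% and 18%). The list holds both interferon signalling genes and inhibitors of cytokine signalling, so its counts give no direction for IDO1. The list medians were -0.02 with ETX, -0.13 in shCPT-1 and -0.28 in shCPT-2. IRF1, an interferon-induced transcription factor, read 9.25 ± 0.04 (SD) in scramble, 9.59 ± 0.04 with ETX, 8.53 ± 0.06 in shCPT-1 and 8.28 ± 0.06 in shCPT-2, all of them beyond the spread (adjusted p = 0.000214, 2.89e-07 and 1.49e-08). BIN1 was lower in all 3 groups (-0.37, -0.69 and -0.94, each ± 0.06). SOCS1, an inhibitor of cytokine signalling, was lower with ETX (-0.84 ± 0.07) and in shCPT-2 (-0.86 ± 0.07). It was also lower in shCPT-1 (-0.23 ± 0.07, adjusted p = 0.0265), a call that ended when any shCPT-1 array, scramble 1 or scramble 3 was left out (up to 0.0744). The interferon gamma receptor chain IFNGR2 was higher in shCPT-1 (0.19 ± 0.06, adjusted p = 0.0286) and lower in shCPT-2 (-0.19 ± 0.06, adjusted p = 0.0234). The first call ended without scramble 3, shCPT-1 2 or shCPT-1 3 (up to 0.098), and the second without scramble 1, scramble 2 or shCPT-2 1 (up to 0.09) and with the actin signal in the fit (0.186).

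**Figure D4:**
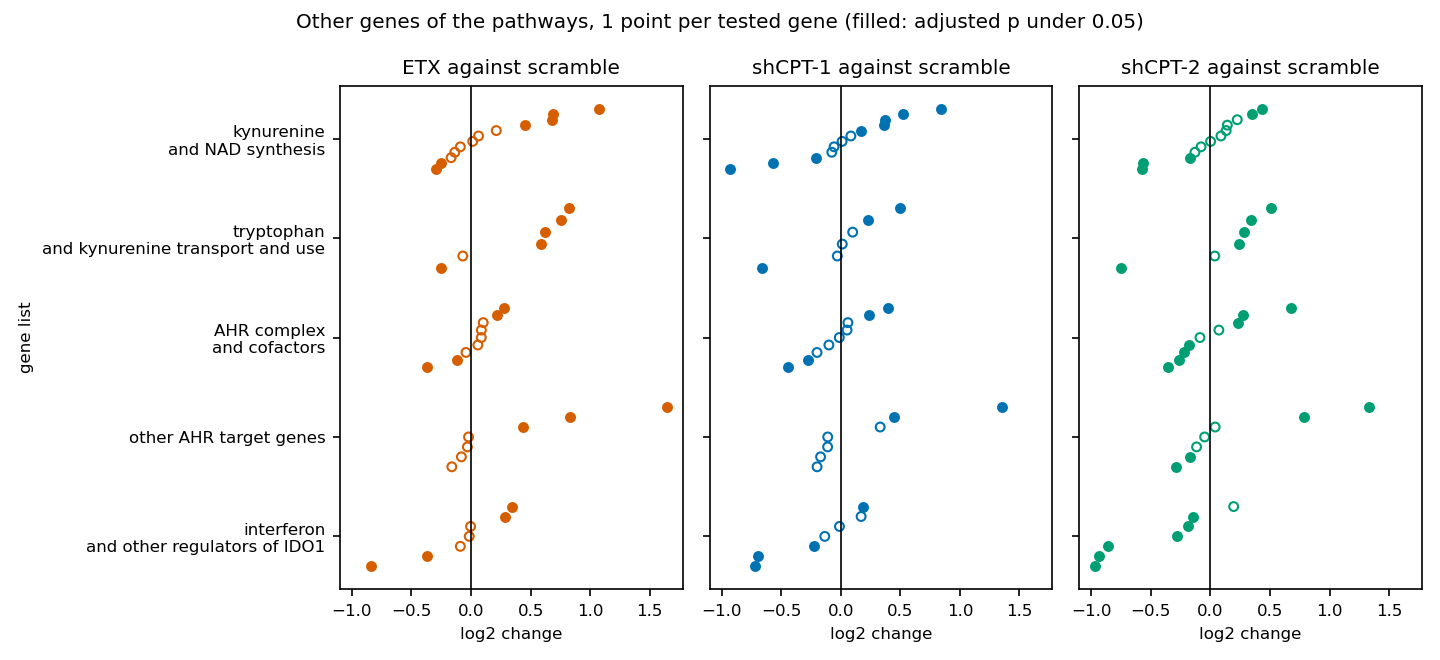
Log2 change against scramble (horizontal axis) of the 41 tested genes of 5 pathway lists (vertical axis, 1 point per gene, ordered by change within a list), in ETX, shCPT-1 and shCPT-2; filled points have an adjusted p under 0.05. Each list holds filled points on both sides of zero in at least 1 panel, and 6 of 7 regulators of IDO1 are filled and left of zero in shCPT-2.

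The genes whose log2 intensity followed KYNU most closely over the 12 arrays were PLCB1 (Pearson r = 0.997), QPCT (0.996), MT1X (0.991), SHISA2 (0.991) and TSPAN6 (0.990). PLCB1, a phospholipase C, averaged 9.73 in scramble, 9.95 with ETX, 6.75 in shCPT-1 and 5.85 in shCPT-2, ranking the groups as KYNU did. For AHR they were PXYLP1 (0.974), GBP2 (0.971), VEGFA (0.970), IRF2BPL (0.970) and HMGA1 (0.967). VEGFA averaged 12.18, 12.19, 11.83 and 9.88 in the same order of groups, so, like AHR, it was lowest in shCPT-2. These correlations rest on 12 arrays in 4 groups, describe mainly the differences between groups, and were picked as the highest among all tested genes.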

How the data were processed

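The authors deposited linear intensity values, 1 for each probe set on each single-colour Affymetrix array. They were made with RMA (background correction, between-array normalization and probe summary), per the submitters' processing notes, and no version, setting or build was stated. All 12 columns were mapped to labelled arrays. Gene symbols came from GEO's platform annotation, and 41091 probe sets had 1 symbol.

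Log2 intensities were computed here. Probe sets were kept where 3 or more arrays read above the array median, and a gene's kept probe set with the highest mean stood for the gene (12886 genes). Groups were compared with limma 3.58.1 in R 4.3.3 on all 12 arrays, without covariates (8 residual and 4.12 prior degrees of freedom), two-sided, with Benjamini-Hochberg adjustment over all tested genes of a comparison. A gene was called at an adjusted p under 0.05. A second fit took each of the 23564 kept probe sets with 1 symbol on its own. With 3 arrays a group, the smallest exact p is 0.1, so no exact test was used. For arrays, their number and the signal over the median limit the precision. The steps were tested on simulated data, and figures were drawn with matplotlib 3.10.9.

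The members and lists were chosen with earlier results of these data known, so no list is independent evidence. Named were all members, per list up to 4 tested genes with the smallest F-test p over the 4 groups, and the 5 genes most correlated with KYNU and with AHR. KYAT1 and KYAT3 were named outside this rule, after their values were seen. Some listed genes are not reported here. Alternatives were other filters, other choices of probe set, other normalizations, other fits, a replicate block and leaving out each array. An actin covariate was added after seeing the data.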

Additional observations from a re-analysis of the deposited data

How the results depend on the processing

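The falls of CYP1B1 in both knockdowns and of AHR in shCPT-2 kept their direction and their call under every alternative that gave a value, leaving out single arrays included. KYNU, chosen for its fall, ranged from -1.93 to -1.29 in shCPT-1 and from -2.52 to -1.55 in shCPT-2. None of these settings took its probe set 210663_s_at on its own, which was at -1.20 in shCPT-1. Without probe sets that can cross-hybridise CYP1B1 had no value, so 1 member was called in shCPT-1 against scramble in place of 2. The count with ETX against scramble was the least stable: 1 member as reported, 3 with each gene's probe sets averaged, 2 without probe sets that can cross-hybridise, 2 with eBayes with trend and robust, 3 with only the groups compared, and 1 to 2 when single arrays were left out. Those added were KYNU, CYP1B1 or AFMID. Over all genes 5319 were called with ETX as reported, and 4025 to 5576 when single arrays were left out. The all-gene counts of the other settings named for ETX are not given, so nothing is read from these member counts. Each probe set on its own gave, by construction, more calls over the whole array: 9003 for ETX, 8826 for shCPT-1 and 10254 for shCPT-2 against scramble (5319, 5302 and 5937 genes as reported), and 8843, 9761 and 7446 for shCPT-1 against ETX, shCPT-2 against ETX and shCPT-2 against shCPT-1 (5505, 5896 and 4575).

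Of the named genes, 4 values changed sign where at least 1 side was called: NCOA1 with ETX became 0.14 with the mean of its probe sets and 0.26 without those that can cross-hybridise (both called), HSP90AB1 in shCPT-2 against ETX became -0.091 with the mean (not called), and NFE2L2 in shCPT-2 against scramble became -0.37 with the actin covariate (called there, not as reported). The replicate numbers did not pair the arrays: 8 of 18 same-numbered pairs correlated above 0.1, and 3 of 12 arrays matched their own number best. With a replicate block 5075 genes were called with ETX against scramble in place of 5319. In shCPT-2 against ETX 5733 genes were called in place of 5896, and 3 members in place of 4. No other member call changed. Genes near the array median (AFMID, CYP1A1, IDO1, QPRT, AHRR, and ALDH1A3 in scramble and with ETX) are limited by signal.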

Other observations

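Antisense transcripts annotated beside members gave little signal. CYP1B1-AS1 has 2 probe sets: 1553829_at averaged 3.69 ± 0.09 (SD, n = 3) in scramble, 3.81 ± 0.05 with ETX, 3.77 ± 0.06 in shCPT-1 and 3.84 ± 0.04 in shCPT-2, and 233410_at lay between 5.89 and 6.31 on all arrays, above the array median on 2 of 12. TIPARP-AS1 (1556829_at) averaged 4.21 to 4.28 over the groups and was under the array median on all 12 arrays. In the limma fit without the filter none was called against scramble, and the changes of 233410_at were -0.03, -0.05 and -0.05, beside falls of over 1 log2 unit in CYP1B1 in both knockdowns.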
